A study of Rattus norvegicus with 6 samples.

Results

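The genes described here are the ligands and receptors of axon guidance, taken as all rows of the deposited expression table whose symbol begins with Sema, Plxn, Efn, Eph, Slit, Robo, Ntn or Unc5 followed by the letter or digit of that family. This rule, which used names and no measured value, found 69 genes of the 30957 in the table. They comprise 20 semaphorins, 9 plexins, 8 ephrins, 14 Eph receptors, 3 Slits, 4 Robos, 6 netrins and 5 Unc5 genes. Unc5cl is included by its name, although it is not known as a netrin receptor.

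RNA-seq was performed on 6 sciatic nerve samples of Sprague Dawley rats, 3 labelled as injured and 3 as normal. The injured nerves were crushed on one side, and the uninjured nerves of the opposite side served as controls. According to the methods of the study, the rats were adult males and the proximal stump of the crushed nerve was taken at 4 days postinjury (dpi), while the labels give no time point, age or sex and do not say which samples came from the same rat. The labels name no transgene or drug, and the injury is the only labelled difference between the groups. The methods of the study state that the rats were under pentobarbital anesthesia for the crush.

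Guidance proteins steer growing axons and migrating cells by attraction or repulsion, and many of them also act on Schwann cells, blood vessels and immune cells. Semaphorins signal through plexins, and the secreted class 3 semaphorins mostly need a neuropilin as co-receptor. Ephrins are membrane-bound ligands of the Eph receptor tyrosine kinases and signal between cells that touch. Slits bind Robo receptors, and netrins bind Dcc, neogenin (Neo1) and the Unc5 receptors. In injured nerve, ephrin-B signals between fibroblasts and Schwann cells and the Slit and Robo pair are known for guiding Schwann cell migration and regrowing axons.

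The content of the libraries was checked before the comparison. The total count on genes lay between 24844371 and 27139360 per library. Of 43 marker genes of Schwann cells, leukocytes, fibroblasts, endothelial, mural and perineurial cells found in the table, 21 had no more than 3 counts in any of the 6 libraries. Among these 21 were the myelin genes Mbp, Mag and Mal, the Schwann cell genes Sox10, S100b and Cdh19, the leukocyte gene Ptprc and the fibroblast genes Dcn and Col1a2. The 5 proliferation markers together reached between 2820 and 3164 normalized CPM (counts scaled to the size and composition of the library), and Mki67 alone had between 37037 and 43837 counts. Other genes of the same lists were present, among them Pmp22 with 821 to 968 counts, Prx with 590 to 690, Pdgfra with 1114 to 1525 and Col1a1 with 293 to 537 per library. Since many defining markers of nerve were at or near 0 in both groups, whether the libraries hold the labelled tissue could not be settled from these values, and "crushed" and "intact" are used below as the labels of the libraries. Of the same 43 genes, 19 could be tested. None of the 19 was called higher by edgeR, against 1.47% of all 12393 genes tested (1 had an unadjusted p under 0.05). DESeq2 and limma, run on the genes that passed edgeR's filter, called none of the 19 higher. DESeq2 gave no adjusted p for 3 of these 19. In the libraries labelled crushed, 5 of the 19 were called lower by edgeR (Erbb3, Col1a1, Col3a1, Pdgfrb and Cspg4), against 1.65% of all genes. The summed level of the mural list was between 185 and 202 normalized CPM in intact and between 149 and 151 in crushed libraries, that of the Schwann lineage list between 8.19 and 8.23 against 6.23 and 6.52, and that of the fibroblast list between 64.4 and 71.6 against 62.7 and 69.5. The myelinating Schwann list held 59.9 to 64.7 against 59.3 to 59.5 normalized CPM, the leukocyte list 3.94 to 5.57 against 4.21 to 6.004, the endothelial list 4.62 to 5.49 against 3.77 to 5.08 and the perineurial list 314 to 378 against 331 to 346. Several sums rest on few genes. Mean normalized CPM in intact and crushed libraries was 345 and 336 for Slc2a1 (perineurial) and 181 and 142 for Cspg4 (mural). In the fibroblast list it was 46.6 and 53.3 for Pdgfra and 20.0 and 12.4 for Col1a1. Lypd2, Rgs5, Acta2, Dcn, Lum and Col1a2 never exceeded 3 counts. Such sums describe these genes and do not measure cell types. The part of the shifts in marker genes in the results below was not tested. In RNA from whole tissue, fewer cells of a type and less RNA per cell cannot be told apart.

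Of the 69 guidance genes, 14 had 0 counts in every library, 16 had counts but too few for edgeR's expression filter, and 39 were tested. A level of 3 counts, taken as the smallest that can be told from 0, corresponded to between 0.110 and 0.121 normalized CPM and covers counting error only. The genes with 0 counts in all 6 libraries were Sema5a, Sema5b, Plxna4a, Plxnb3, Epha1, Epha6, Epha8, Ephb1, Slit3, Robo4, Ntn1, Ntng1, Unc5cl and Unc5d. The 16 genes below the filter never exceeded 16 counts, a value reached by Plxnb1 in 1 crushed library. Of these, Sema3e, Sema4f, Sema6d, Epha10, Ephb2, Slit1, Robo3 and Unc5a never exceeded 3 counts, and Plxnc1, Efna2, Efna3, Epha5, Ntn4, Ntn5 and Ntng2 made up the rest with Plxnb1. In edgeR without the filter, none of the 16 genes with counts was called, 0 had an unadjusted p under 0.05 and the lowest adjusted p was 0.471. A difference between the groups was not detectable at this depth for any of these 30 genes.

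The level of the genes was read from FPKM (counts scaled to gene length and library size), which puts genes on one scale. According to the methods of the study, the RNA was depleted of rRNA and treated with RNase R before sequencing. Whether these steps kept the order of genes by mRNA level was not tested, so levels and shares describe the libraries. Sema3c, Epha2 and Plxnb2 held 59.8% ± 0.713 (SD, n = 6 libraries) of the summed FPKM of all 69 genes. Only 13 genes had a mean FPKM of 10 or more and 29 a mean of 1 or more. The summed FPKM of the 69 genes was 661 ± 10.9 in intact and 667 ± 4.34 in crushed libraries (SD, n = 3 each).

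**Figure D1:**
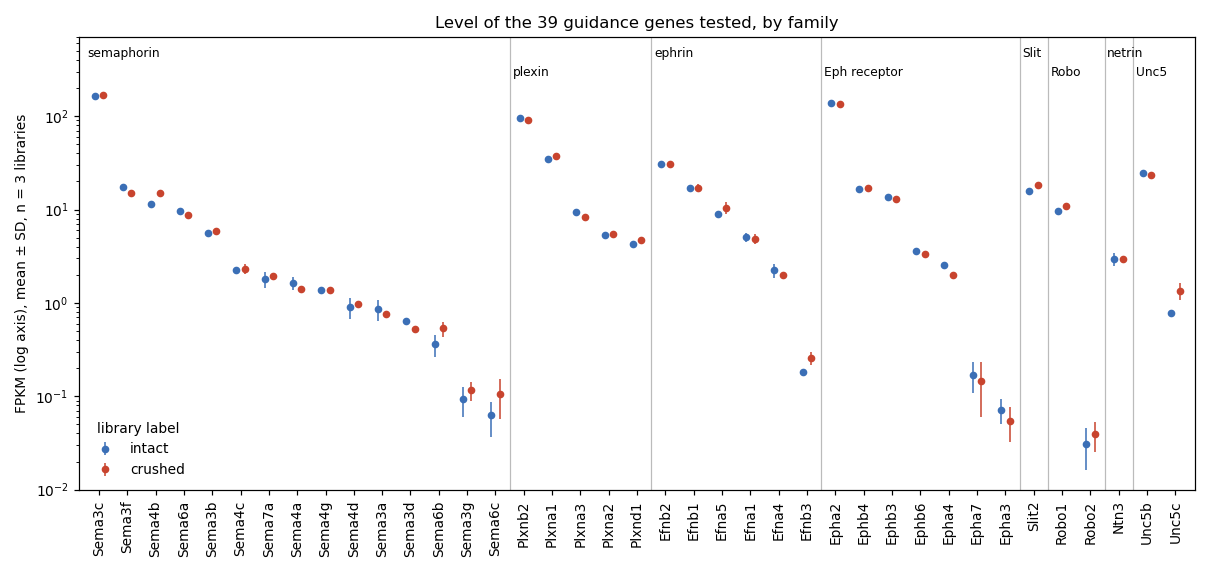
FPKM on a log axis of the 39 guidance genes that were tested, ordered by family and then by level, with points for the mean and bars for the SD of 3 intact (blue) and 3 crushed (red) libraries. Sema3c, at a mean FPKM of 164 and 170, and Epha2, at 139 and 135, stand above all others in both groups, and in most families 1 gene lies well above the rest.

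In the comparison of crushed with intact libraries, 5 of the 39 genes tested changed at an adjusted p under 0.05 from edgeR's quasi-likelihood test, which is 12.8% against 3.12% of all 12393 genes tested. Sema4b, Unc5c and Slit2 rose, 3 of 39 or 7.69% against 1.47% of all genes, and Sema3f and Epha4 fell, 2 of 39 or 5.13% against 1.65%. Among all genes 182 rose and 205 fell. With limma on log2(FPKM + 0.1) 156 rose and 86 fell, and with DESeq2 219 rose and 292 fell. The changes of the guidance genes were small. The median absolute log2 fold change of the 39 genes was 0.14, against 0.082 over all genes, and the median with its sign was 0.0036, against -0.0017, with 20 genes positive and 19 negative. None of the 39 genes met the limits of the study, an absolute log2 fold change above 1 and an unadjusted p under 0.001, which 0.282% of all genes met by edgeR's test, and none did with DESeq2. At an unadjusted p under 0.05, 10 of the 39 genes passed, 25.6% against 16.2% of all genes. The 3 crushed libraries all were higher than the 3 intact libraries, or all lower, for 13 of the 39 genes, 33.3% against 23.0% of all genes.

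**Figure D2:**
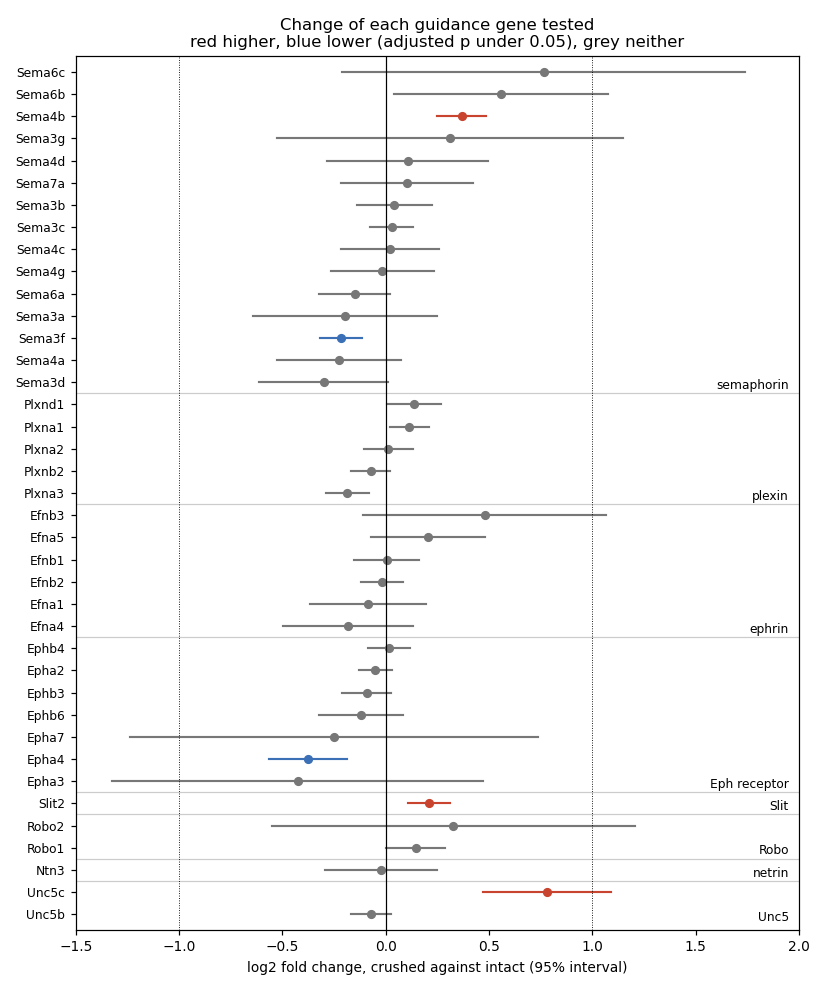
Log2 fold change of the 39 genes tested, crushed against intact, with the 95% interval as a line, grouped by family, red for the 3 genes that rose, blue for the 2 that fell and grey for the others. Dotted lines mark a log2 fold change of 1 in either direction, and no point lies beyond them, the highest being Unc5c at 0.78.

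**Figure D3:**
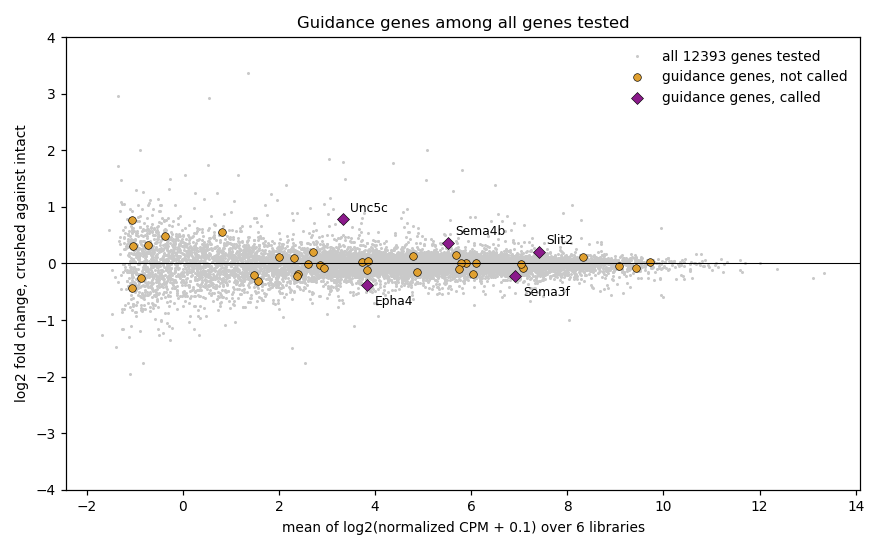
Log2 fold change against the mean level, as log2(normalized CPM + 0.1) over 6 libraries, for all 12393 genes tested (grey), the 34 guidance genes not called (orange circles) and the 5 called (purple diamonds). The 5 called genes lie between -0.37 and 0.78 on the vertical axis, within the range of the grey points.

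Sema4b, a membrane-bound class 4 semaphorin, had the smallest p of all guidance genes. The gene is located on chromosome 1 between positions 141986145 and 142014398 in the coordinates of the deposited table. Counts of 1036, 1069 and 978 were found in intact libraries 1, 2 and 3 and 1475, 1402 and 1261 in crushed libraries 1, 2 and 3. All crushed libraries were above all intact libraries, with a gap wider than the spread within either group. The level rose from 40.3 ± 0.753 to 52.0 ± 1.87 normalized CPM (SD, n = 3 each), a log2 change of 0.37 (SE 0.0531, adjusted p = 0.00310) or 29.0%. Sema4b passed the test in all 11 alternatives, and with each library left out in turn its adjusted p stayed between 0.00291 and 0.0278.

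Since Sema4b is the gene whose call held in every alternative, the sequence before its start site is shown, beside those of Sema3c and Epha2, the secreted ligand and the receptor with the highest FPKM. The sequences are from RefSeq (build GRCr8), where 54 of the 69 genes were found in the promoter table, and run over the 250 bases before the start site, 5′ to 3′ along the gene. Capitals mark matches to the GC box GGGCGG on either strand. The window of Sema4b is chr1:143558547-143558796 on the + strand, that of Sema3c chr4:18699628-18699877 on the - strand and that of Epha2 chr5:158888379-158888628 on the + strand.
Sema4b: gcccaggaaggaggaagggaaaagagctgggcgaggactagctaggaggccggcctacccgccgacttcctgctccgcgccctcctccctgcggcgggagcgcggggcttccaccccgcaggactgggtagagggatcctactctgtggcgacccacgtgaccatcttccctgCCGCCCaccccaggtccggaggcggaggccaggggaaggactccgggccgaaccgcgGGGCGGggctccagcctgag
Sema3c: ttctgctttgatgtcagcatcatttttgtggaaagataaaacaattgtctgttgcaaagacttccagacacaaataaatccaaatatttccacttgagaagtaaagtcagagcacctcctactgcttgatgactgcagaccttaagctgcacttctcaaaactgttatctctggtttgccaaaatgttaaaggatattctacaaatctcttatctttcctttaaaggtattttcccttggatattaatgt
Epha2: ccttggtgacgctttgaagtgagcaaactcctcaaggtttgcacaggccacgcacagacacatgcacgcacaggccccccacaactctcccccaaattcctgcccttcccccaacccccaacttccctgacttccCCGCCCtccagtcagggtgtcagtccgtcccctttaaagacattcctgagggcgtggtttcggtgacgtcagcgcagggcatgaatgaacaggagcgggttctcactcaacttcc

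The start site used for Sema4b lies 13.1 kb inside the span annotated for the gene and that of Sema3c 2.83 kb inside it, so that both windows belong to an inner start site, while the window of Epha2 ends directly before the first base of the gene. Sema4b held 2 GC boxes, 1 on each strand, and 21 CpG dinucleotides in its 250 bases. Epha2 held 1 GC box and 10 CpG, and Sema3c no GC box and 0 CpG. A GC box was present in 32.4% of the windows of 27457 symbols, whose median CpG number was 6. Neither TATAAA (13.1% of windows), TGANTCA of AP-1 (6.36%) nor the NF-κB motif (3.52%), searched on both strands, was found in the 3 windows. The median CpG number was 14 (range 0 to 43) in the 29 tested guidance genes with a window, 19 (range 6 to 36) in the 15 genes below the filter and 12 (range 2 to 40) in the 10 genes with 0 counts. GC boxes were present in 16 of these 29, 10 of these 15 and 5 of these 10 windows.

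Sema3f, a secreted semaphorin that signals through neuropilin 2 and repels axons, fell. The gene is located on chromosome 8 between positions 116437696 and 116469915. Counts of 3380, 3284 and 3269 were found in intact libraries and 3032, 3150 and 2714 in crushed libraries. After normalization the groups did not overlap, with 130.0 ± 4.87 and 112 ± 3.91 normalized CPM (SD, n = 3 each). The log2 fold change equalled -0.22 (SE 0.0463, adjusted p = 0.0307). The call was lost without intact library 3 (adjusted p = 0.0872) and without crushed library 1 (0.138), 2 (0.0696) or 3 (0.135), and with limma on log2(FPKM + 0.1) (0.117) or log2(FPKM + 1) (0.122). It was also lost in edgeR with the library number as a block, as in a paired comparison (adjusted p = 0.0700). Gnat1 overlaps Sema3f in the table but had at most 59 counts per library.

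Sema3c, a secreted semaphorin, made up 75.4% of the FPKM summed over the semaphorins. It had 22116, 22516 and 19646 counts in intact and 22899, 22629 and 22574 in crushed libraries, and the groups overlapped. Its log2 fold change was 0.030 (95% interval -0.075 to 0.134, adjusted p = 0.806), and its sign turned in 2 of the alternatives. Sema3c lies on chromosome 4 together with Sema3e, Sema3a and Sema3d, none of which reached a mean FPKM of 1. Of the 15 semaphorins tested, 1 rose (6.67% against 1.47% of all genes), 1 fell (6.67% against 1.65%) and 13 were not called, with a median log2 fold change of 0.030. The largest log2 fold change was that of Sema6c, a transmembrane semaphorin, at 0.76 (SE 0.441, adjusted p = 0.433). Sema6c had 6, 6 and 11 counts in intact and 21, 12 and 8 in crushed libraries, and the groups overlapped. Its level was too low to bound the change, with a 95% interval from -0.21 to 1.74 and a log2 fold change of 0.34 without crushed library 1. Sema3b, which was singled out after its value was seen because it lies 76.4 kb from Sema3f on chromosome 8, differed by 0.040 on the log2 scale (adjusted p = 0.854).

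Plexins are the signalling receptors of semaphorins. None of the 5 plexins tested was called by edgeR, DESeq2 or limma, although 3 passed an unadjusted p of 0.05 in edgeR, 60% of the family against 16.2% of all genes. Plxnb2, a receptor of class 4 semaphorins, held 62.8% of the plexin FPKM and had a log2 fold change of -0.073 (95% interval -0.17 to 0.023). Plxna1, which pairs with neuropilins, had 8224, 7958 and 7382 counts in intact and 9102, 9119 and 8303 in crushed libraries. After normalization its groups did not overlap, at 308 ± 14.7 and 334 ± 2.26 normalized CPM (SD, n = 3 each). The log2 fold change of Plxna1 was 0.11 (SE 0.0425, adjusted p = 0.213), and it passed the test only without intact library 1 (0.16, adjusted p = 0.0234). Plxna3, another neuropilin partner, had the largest change of the family and the opposite sign. It had 1762, 1862 and 1691 counts in intact and 1697, 1693 and 1473 in crushed libraries, which did not overlap after normalization. Its log2 fold change equalled -0.19 (SE 0.0478, adjusted p = 0.0701), and it did not pass the test in any alternative.

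The neuropilins, which are not among the 69 genes, were in the list of other pathway genes. Nrp2, the co-receptor of Sema3f, was abundant, with 25438, 27539 and 25992 counts in intact and 26298, 26703 and 24764 in crushed libraries. The groups did not overlap after normalization, and the log2 difference was -0.078 (SE 0.0353, adjusted p = 0.307). Nrp1, the co-receptor of Sema3a, was low, with 117, 127 and 113 counts in intact and 109, 58 and 62 in crushed libraries. The crushed libraries lay below the intact ones after normalization, but crushed library 1 was close to them. The log2 fold change of Nrp1 was -0.70 (SE 0.202, adjusted p = 0.106). It passed the test with DESeq2 (adjusted p = 0.0456) and, with a log2 fold change of -1.02, without crushed library 1 (adjusted p = 0.0111). The FPKM of Nrp2 was 161 ± 4.27 and that of Nrp1 0.669 ± 0.0186 in intact libraries (SD, n = 3).

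**Figure D4:**
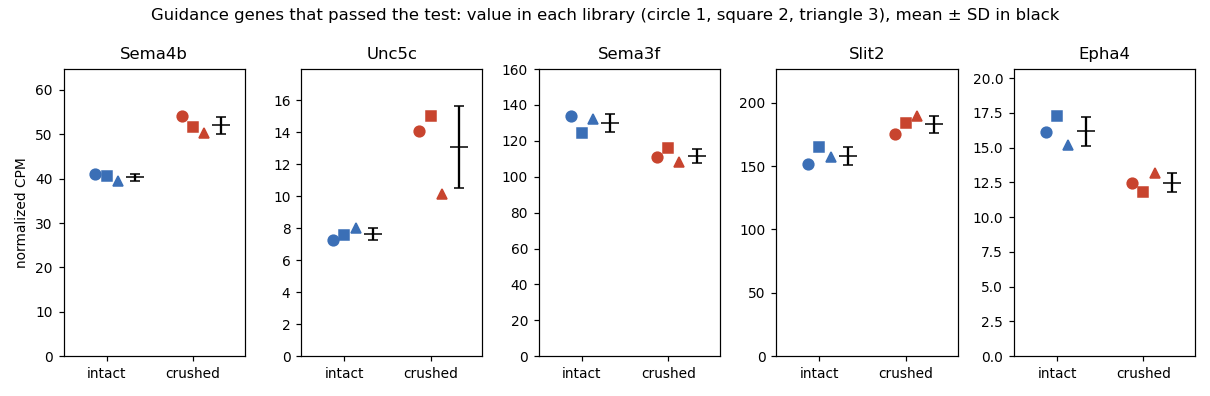
Normalized CPM of the 5 guidance genes that passed the test in each library, with circles, squares and triangles for libraries 1, 2 and 3 of each group, blue for intact and red for crushed, and the mean ± SD (n = 3) in black on axes that start at 0. The groups do not overlap for any of the 5 genes, and crushed library 3 lies apart from the other two crushed libraries for Unc5c.

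Epha4, an Eph receptor that binds ephrins of both classes, fell. The gene is located on chromosome 9 between positions 83111222 and 83253458. Counts of 408, 455 and 376 were found in intact and 341, 320 and 331 in crushed libraries. The groups did not overlap, with 16.2 ± 1.03 and 12.5 ± 0.712 normalized CPM (SD, n = 3 each). The log2 fold change equalled -0.37 (SE 0.0854, adjusted p = 0.0421). This call was the weakest of the 5 and was lost with any 1 of the 6 libraries left out, with adjusted p between 0.0515 and 0.191, and with limma on log2(FPKM + 0.1) (0.162) or log2(FPKM + 1) (0.132). With the library number as a block in edgeR, the call of Epha4 was lost as well (adjusted p = 0.0886).

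Among the other Eph receptors, Epha2 held 79.1% of the FPKM summed over the family. Its counts were 13554, 14755 and 13468 in intact and 14521, 14382 and 13032 in crushed libraries. The level was 139 ± 3.26 and 135 ± 1.57 FPKM (SD, n = 3 each), and the crushed libraries lay below the intact ones after normalization without passing the test, with a log2 fold change of -0.051 (95% interval -0.13 to 0.029, adjusted p = 0.526). Ephb4, the receptor of ephrin-B2 in blood vessels, followed with a mean FPKM of 16.7 in intact and 17.1 in crushed libraries and a log2 fold change of 0.016 (95% interval -0.084 to 0.12). Of the 7 Eph receptors tested, 1 fell (14.3% against 1.65% of all genes) and 6 were not called, with a median log2 fold change of -0.12. Epha3 had the largest log2 fold change of the family, -0.43, with 5 to 15 counts per library and a 95% interval from -1.32 to 0.47. Its log2 fold change was -0.12 without crushed library 2, -0.18 without intact library 3 and -0.63 without crushed library 3.

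None of the 6 ephrins tested was called by edgeR or limma, nor by DESeq2, which gave no adjusted p for Efnb3, and 0 passed an unadjusted p of 0.05 in edgeR. Efnb2, the transmembrane ligand of Ephb4 and Epha4, held 47.3% of the ephrin FPKM and had 3439, 3530 and 3172 counts in intact and 3613, 3394 and 3400 in crushed libraries. Its log2 fold change was -0.018 (95% interval -0.12 to 0.084). Efnb1, another transmembrane ephrin, had a log2 fold change of 0.0036 (95% interval -0.15 to 0.16). Both values are smaller than their errors, and their signs turned in some of the alternatives. Efnb3 had the largest log2 fold change of the ephrins, 0.48 (SE 0.266, adjusted p = 0.410), with 16, 15 and 13 counts in intact and 26, 19 and 19 in crushed libraries. Its groups did not overlap, and its level was 0.182 ± 0.0165 and 0.257 ± 0.0425 FPKM (SD, n = 3 each).

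Slit2, a secreted ligand of Robo receptors, rose and was the only Slit with more than 3 counts in a library. The gene is located on chromosome 14 between positions 66831848 and 67170361. Counts of 3835, 4366 and 3900 were found in intact and 4799, 4991 and 4740 in crushed libraries. All crushed libraries lay above all intact ones, with 158 ± 6.98 and 183 ± 6.77 normalized CPM (SD, n = 3 each). The log2 fold change equalled 0.21 (SE 0.0467, adjusted p = 0.0376), or 15.6%. The call was lost without intact library 3 (adjusted p = 0.0853) and without crushed library 1 (0.0760), 2 (0.151) or 3 (0.153), and with limma on log2(FPKM + 0.1) (0.0963).

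Robo1, a receptor of Slit2, held 99.5% of the Robo FPKM. It had 1366, 1232 and 1152 counts in intact and 1451, 1500 and 1359 in crushed libraries, and the groups overlapped. Its log2 fold change equalled 0.14 (SE 0.0648, adjusted p = 0.306), and it passed the test only without intact library 1 (0.22, adjusted p = 0.0347). Robo2 had 8 to 21 counts per library and a log2 fold change of 0.33 (95% interval -0.55 to 1.21), which was 0.76 without intact library 3, 0.085 without intact library 2, 0.22 without intact library 1, 0.51 without crushed library 1 and 0.018 without crushed library 3.

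Unc5c, a netrin receptor known for repulsion, had the largest change of the 39 genes. The gene is located on chromosome 2 between positions 247248407 and 247397483. Counts of 184, 200 and 199 were found in intact and 385, 407 and 254 in crushed libraries. Crushed library 3 was nearer to the intact libraries than the other 2 crushed libraries, but the groups did not overlap. The level rose from 7.63 ± 0.383 to 13.1 ± 2.58 normalized CPM (SD, n = 3 each). The log2 fold change equalled 0.78 (SE 0.139, adjusted p = 0.0125), or 71.7%. Without crushed library 3 it was 0.93 (adjusted p = 0.00147), and the call was lost without intact library 2 (adjusted p = 0.0538), crushed library 1 (0.0640) or crushed library 2 (0.0570). With limma on log2(FPKM + 1) the log2 difference of Unc5c was 0.40 (adjusted p = 0.0798).

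Unc5c had the lower level of the 2 tested Unc5 genes. Unc5b, a netrin receptor of blood vessels, held 95.7% of the Unc5 FPKM, at 24.6 ± 1.15 in intact and 23.7 ± 0.332 in crushed libraries (SD, n = 3 each), while Unc5c had an FPKM of 0.781 ± 0.0419 and 1.35 ± 0.267. Unc5b had 3456, 3556 and 3620 counts in intact and 3654, 3543 and 3331 in crushed libraries. Its groups did not overlap after normalization, and its log2 fold change was -0.072 (95% interval -0.17 to 0.026, adjusted p = 0.465).

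**Figure D5:**
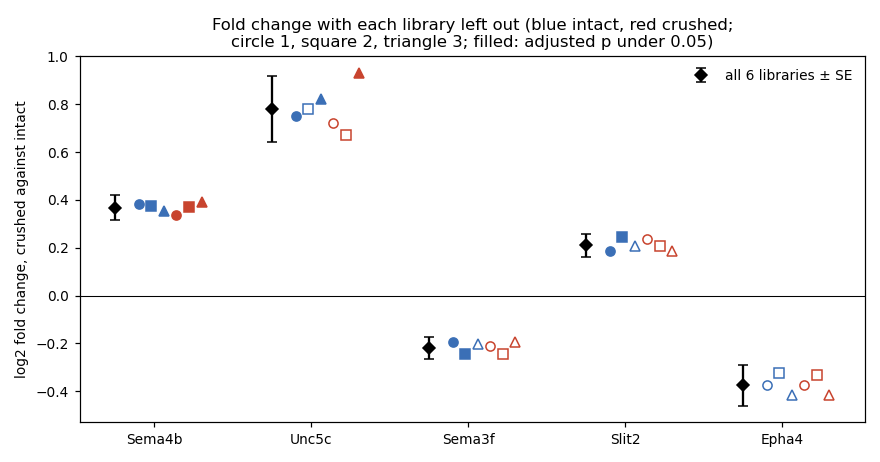
Log2 fold change of the 5 called genes with all 6 libraries (black diamonds, bars ± SE) and with each library left out in turn, blue for an intact and red for a crushed library left out, and filled where the adjusted p is under 0.05. All values keep their sign, Sema4b is filled throughout between 0.34 and 0.39, and Epha4 is never filled.

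Of the 6 netrins, 1 was tested. Ntn1, the best known ligand of the Unc5 receptors, had 0 counts in every library. Ntn3 was the netrin tested and held 98.2% of the netrin FPKM. It had 151, 203 and 197 counts in intact and 196, 199 and 170 in crushed libraries, and a log2 fold change of -0.021 (95% interval -0.29 to 0.25). Ntn4, a netrin of basement membranes, had at most 5 counts. Dcc, the attractive netrin receptor outside the 69 genes, had 0 counts in every library, whereas its relative Neo1 had between 2436 and 2729 counts and a log2 fold change of 0.014 (95% interval -0.080 to 0.11).

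Of the 34 genes tested but not called, 27 had a 95% interval of the log2 fold change that lay within 1 in either direction, and 24 one within 0.5. The other 7 genes, Sema3g, Sema6b, Sema6c, Efnb3, Epha3, Epha7 and Robo2, had few counts. For Sema6b, singled out after its value was seen, 27 to 45 counts in intact and 41 to 65 in crushed libraries gave a log2 change of 0.56 (SE 0.235, adjusted p = 0.273). Plxnd1, an endothelial semaphorin receptor singled out in the same way, had a log2 change of 0.14 (SE 0.0599, adjusted p = 0.290) and groups that did not overlap.

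A list of 55 other genes of these pathways, made of co-receptors, further ligands and intracellular effectors, was read from the same test. The table held 53 of them, 11 had 0 counts and 38 were tested. Of the 38, 1 rose and 1 fell, 5.26% against 3.12% of all genes, with a median log2 fold change of -0.046. Rnd1, a small GTPase that binds plexins, had 192, 229 and 205 counts in intact and 323, 299 and 264 in crushed libraries and rose by 0.44 on the log2 scale (SE 0.0954, adjusted p = 0.0322). Enah, an actin regulator downstream of Robo and netrin receptors, had 8796, 7836 and 7618 counts in intact and 7169, 7467 and 6725 in crushed libraries, with a log2 change of -0.24 (SE 0.0563, adjusted p = 0.0474). The call of Rnd1 was lost with any 1 library left out (adjusted p between 0.0557 and 0.146). That of Enah was lost without intact library 3 (adjusted p = 0.0710) and without crushed library 1 (0.192), 2 (0.115) or 3 (0.151). Neither Rnd1 nor Enah was called with the library number as a block.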

How the data were processed

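RNA-seq counts of 3 libraries labelled as crushed and 3 labelled as intact sciatic nerve were analysed. The authors deposited raw counts of reads per Ensembl gene and FPKM values computed from them, in 1 table. According to the methods of the study, rRNA was removed and the RNA was treated with RNase R before library preparation. The submitters' processing notes name HISAT2, StringTie 1.3.0 and the build Rnor_6.0, without their roles. The counting rule and the strand setting are not given in the sources used here. All 12 columns of values were matched to samples by title.

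From the counts, normalized CPM were obtained with TMM for the genes kept by filterByExpr, and groups were compared by the quasi-likelihood test of edgeR 4.0.16 in R 4.3.3 over all 6 libraries without a block, and p-values were adjusted with the Benjamini-Hochberg method over all 12393 genes tested. A gene was called at an adjusted p under 0.05. The limits of the study were a second call rule. Standard errors and 95% intervals were taken from the test statistic. The calculation was tested on simulated data with planted log2 fold changes of 1 or more in either direction, larger than those of the called guidance genes. How often changes of their size are found was not tested. Alternatives were a replicate block, DESeq2 1.42.0 with its size factors, no filter (genes with at least 1 count), limma 3.58.1 with a trend on log2(FPKM + 0.1) or log2(FPKM + 1), and each library left out in turn. The pseudocounts understate changes of low genes.

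Replicates are separate libraries, described by the submitters as biological replicates. For pairs of libraries within a group, chi-square divided by its degrees of freedom was 3.27 to 11.8 over genes. No library was thus a mere resampling of the reads of another. The value cannot tell separate rats from separate preparations of the same RNA.

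Genes named are those called, in each family the 2 with the highest mean FPKM and the 1 with the largest absolute log2 fold change, and, of the pathway list, Nrp1, Nrp2, Dcc, Neo1 and the called genes. Members, lists and tests were chosen with earlier results of these data known. The promoter motifs were chosen after the counts were analysed.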

Additional observations from a re-analysis of the deposited data

How the results depend on the processing

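Sema4b was called in all 11 alternatives, and the other 4 called guidance genes kept their sign in all 11. The number of guidance genes called higher (3) was 1 with limma on log2(FPKM + 0.1) and on log2(FPKM + 1), 0 under the limits of the study, and 1 to 5 with each library left out, the 5 being reached without intact library 1. The number called lower (2) was 0 with the replicate block, 0 with limma at both pseudocounts, 0 under the limits of the study, and 0 to 1 with each library left out. Of all genes, 182 were called higher and 205 lower. The number lower was 86 with limma on log2(FPKM + 0.1) and 94 on log2(FPKM + 1). With DESeq2, which called 3 guidance genes higher and 2 lower, 219 of all genes were higher and 292 lower. Under the limits of the study 27 were higher and 8 lower, and with each library left out 100 to 218 were higher and 75 to 174 lower. Of the pathway list, where 1 was higher and 1 lower, 3 were higher and 2 lower with DESeq2, 2 higher and 0 lower without the filter, 0 and 0 with the replicate block and under the limits of the study, 0 lower with limma at both pseudocounts, and 0 to 1 in each direction with each library left out. The fits without a library have fewer samples, and other causes of these shifts were not tested.

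Alternatives were read gene by gene for the named genes alone, and among those not called the log2 fold changes of 4 turned their sign, and with each library left out they ranged from -0.0080 to 0.064 for Sema3c, -0.073 to 0.072 for Efnb1, -0.043 to 0.015 for Efnb2 and -0.13 to 0.057 for Ntn3. That of Sema3c was -0.0080 without intact library 3 and -0.0070 without crushed library 3. That of Efnb1 was -0.00037 with the replicate block, -0.014 without intact library 2 and -0.073 without crushed library 1. That of Efnb2 was 0.0059 without intact library 1 and 0.015 without crushed library 2. That of Ntn3 was 0.0054 and 0.0022 with limma at the pseudocounts 0.1 and 1, and 0.033, 0.057 and 0.0097 without intact library 2, intact library 3 and crushed library 3.

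The labels number the libraries 1 to 3 in each group without saying that a number stands for one rat. The deviations of same-numbered libraries from their group means correlated between -0.0097 and 0.071, and those of libraries with other numbers between -0.062 and 0.069. With 3 libraries per group, these values cannot show which samples came from the same rat. The main fit did not pair the samples by number. With the replicate block (paired analysis), Sema4b, Unc5c and Slit2 were called, while Sema3f had an adjusted p of 0.0700 and Epha4 of 0.0886. With limma on log2(FPKM + 0.1) the adjusted p was 0.0835 for Unc5c, 0.117 for Sema3f, 0.0963 for Slit2 and 0.162 for Epha4. Of the 387 genes called, 284 were among the 300 called with the block. Depth limits the 14 guidance genes with 0 counts, the 16 tested only without the filter and the 7 whose interval reaches beyond a log2 fold change of 1.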
